A study of Mus musculus with 12 samples.

Results

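The samples compared here were mouse cells labelled Ly6C, from spleen in 3 libraries (Ly6C spleen) and from tumor in 3 libraries (Ly6C tumor), measured by bulk RNA sequencing. The series holds 12 libraries, labelled Ly6C or Ly6G, and describes them as monocytic and polymorphonuclear myeloid-derived suppressor cells (MDSCs) without saying which label is which kind. The Ly6C tumor libraries went against a label of myeloid cells: all 20 pan-leukocyte genes fell there, Ly6c2 stood at 6.63, 6.35 and 8.16 FPKM and the keratin gene Krt8 at 664, 770.0 and 576. The genes described are those with an Ensembl identifier and 1 FPKM or more in 3 or more of the 6 Ly6C libraries, which were 12707 of 54104 genes with such an identifier. FPKM count fragments per length of gene, scaled to the mapped fragments of the library, so levels can be set side by side between genes. Strain, age, tumor model, sorting gate and any treatment of the animals are not in the labels, and both tissues carry the same label, Ly6C. Nothing says that libraries of a group came from separate animals, so p-values measure the spread between these libraries, which may be technical.

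MDSCs are immature myeloid cells that accumulate in tumor-bearing animals and restrain T cells. The monocytic kind shows the surface protein Ly6C without Ly6G and can give rise to macrophages within a tumor, and the polymorphonuclear kind resembles immature neutrophils. Developing granulocytes fill their granules in a fixed order under the transcription factor C/EBP epsilon (Cebpe), and the genes of secondary granules are switched on together at the myelocyte stage.

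The promoters below are of genes among the largest falls and rises, and are shown because the results turn on these genes. They are the 250 bases before the start site in RefSeq (GRCm38.p6), written 5′ to 3′ along the gene, with capitals marking matches to the words TTGCNNAA (C/EBP), GGGNN followed by TTTCC (NF-kappaB) or TGANTCA (AP-1) on either strand. GENCODE M21 starts these genes upstream of the RefSeq start, so the end of a window can lie in a GENCODE transcript. For Camp most of the window does.
Camp, chr9:109849457-109849706, minus strand: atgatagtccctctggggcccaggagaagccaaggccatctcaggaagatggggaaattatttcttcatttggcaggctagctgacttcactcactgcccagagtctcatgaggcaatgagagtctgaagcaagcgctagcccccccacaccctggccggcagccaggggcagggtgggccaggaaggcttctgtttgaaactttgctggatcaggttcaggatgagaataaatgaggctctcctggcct
Ltf, chr9:111019042-111019291, plus strand: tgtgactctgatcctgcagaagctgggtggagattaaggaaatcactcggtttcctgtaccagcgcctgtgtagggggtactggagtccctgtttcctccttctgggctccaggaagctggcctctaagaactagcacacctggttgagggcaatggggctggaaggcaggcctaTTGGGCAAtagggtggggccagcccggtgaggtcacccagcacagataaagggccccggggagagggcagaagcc
Ngp, chr9:110419558-110419807, plus strand: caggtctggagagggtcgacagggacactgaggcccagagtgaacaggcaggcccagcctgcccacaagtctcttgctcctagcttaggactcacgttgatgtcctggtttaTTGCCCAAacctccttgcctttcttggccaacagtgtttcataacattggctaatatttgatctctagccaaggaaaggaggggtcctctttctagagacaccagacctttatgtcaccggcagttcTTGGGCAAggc
Cxcl1, chr5:90890995-90891244, plus strand: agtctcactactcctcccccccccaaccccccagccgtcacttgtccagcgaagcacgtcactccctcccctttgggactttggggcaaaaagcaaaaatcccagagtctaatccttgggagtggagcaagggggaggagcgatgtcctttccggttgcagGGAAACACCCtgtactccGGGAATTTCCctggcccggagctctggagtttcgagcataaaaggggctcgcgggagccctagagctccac

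Camp, Ltf and Ngp encode an antimicrobial peptide precursor, lactoferrin and a neutrophil granule protein, and Cxcl1 a chemokine that draws neutrophils. The Ltf window held 1 C/EBP word, starting at base -75 from the start site, and the Ngp window held 2, at -138 and -11. No word matched in the Camp window, most of which lies in the GENCODE transcript. The Cxcl1 window held 2 NF-kappaB words, at -89 and -71. Of 32851 mouse promoters of this length, 9.56% held the C/EBP word, 1.41% the NF-kappaB word and 6.75% the AP-1 word. A total of 8756 genes described here matched the promoter table by symbol. Among 32 promoters of genes at least 32-fold lower in tumor, 5 held the C/EBP word (15.6%), and among 92 promoters of genes at least 32-fold higher, 8 did (8.70%), beside 7.43% of promoters of all genes described. The NF-kappaB word was in 2 of the 32 (6.25%) and 1 of the 92 (1.09%), and the AP-1 word in 1 of the 32 (3.12%) and 8 of the 92 (8.70%). These are counts of letters with no test, and a match is not a site of binding.

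Changes below are Ly6C tumor minus Ly6C spleen on the log2(FPKM + 1) scale with the standard error of a limma fit of all 12 libraries, which understates the change of genes with low values. A gene rose or fell where its Benjamini-Hochberg adjusted p over 12707 genes was under 0.05. In all, 77.5% of genes passed in either direction. Genes that rose numbered 5990 (47.1%) and genes that fell 3856 (30.3%), and the median change was 0.29. The 3 tumor values lay above the 3 spleen values for 47.9% of genes and below them for 31.2%. Against this background a list with most of its genes passing is usual, and each list is given with its count and, for many lists, its median. A gene below 1 FPKM in all libraries of 1 tissue met the filter only through the other tissue. The direction of such a gene was set by the filter and is not tested by the list counts. After rescaling, the median of all genes moved to 0.21 with equal library sums, -0.02 with equal sums without S100a8 and S100a9, 0.02 with median-of-ratios factors and 0.01 with quantile normalization. The share of higher genes among those passing was then 57.8%, 49.4%, 51.2% and 50.7%, against 60.8% as deposited.

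The FPKM of a Ly6C library summed to 338757 at the lowest and 388126 at the highest, and 10589 to 12030 genes were at 1 FPKM or more. The number of fragments per library is unknown. Pearson's r across genes was 0.970 to 0.984 within a group and 0.535 to 0.630 between the groups. Of the 3 tumor libraries, replicate 2 had the lowest pan-leukocyte, neutrophil and monocyte sums and the highest keratin sum, and replicate 3 the highest mitochondrially encoded share (7.41% of FPKM, against 2.84% in replicate 2).

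The Ly6C tumor libraries held little of the transcripts that define leukocytes. The 20 pan-leukocyte genes summed to between 4165 and 4835 FPKM per spleen library and to between 179.9 and 369 per tumor library, and all 20 fell (median -3.61). Ptprc, the surface phosphatase CD45 carried by white blood cells, stood at 26.3, 37.2 and 38.3 FPKM in spleen and at 4.1, 2.59 and 4.59 in tumor, with no overlap between the groups (-2.88 ± 0.26, adjusted p = 6.90e-07, limma). In bulk libraries fewer cells of a type and less RNA per cell cannot be told apart, and the share of leukocytes in the tumor libraries was not measured.

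Ly6c2, which encodes the Ly6C antigen of monocytes, stood at 246, 272 and 223 FPKM in spleen and at 6.63, 6.35 and 8.16 in tumor (-4.95 ± 0.17, adjusted p = 2.23e-10). Its neighbor Ly6c1 went the other way, from 15.4, 14.6 and 13.1 FPKM to 67.5, 82.8 and 86 (2.37 ± 0.18, adjusted p = 1.37e-07). All 3 tumor libraries thus held more Ly6c1 than Ly6c2 and all 3 spleen libraries the reverse. The pair is nearly identical in sequence, so how the authors' counting assigned reads between them makes both values uncertain. Ly6g, the marker of neutrophils, stood at 157, 131 and 209 FPKM in the Ly6C spleen libraries and at 13.3, 11.8 and 13.8 in Ly6C tumor (-3.55 ± 0.22). Of 14 monocyte markers 10 fell and 2 rose, Ly6c1 and the lipopolysaccharide co-receptor Cd14, which went from 174 ± 31.2 to 455 ± 129.5 FPKM (1.35 ± 0.24). Of 15 neutrophil markers 14 fell (median -4.07), and their sum fell from between 67970 and 106659 FPKM in spleen to between 1527 and 2840 in tumor.

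Spleen libraries differed among themselves in some myeloid genes. Itgam, the integrin subunit CD11b found on both kinds of MDSC, stood at 97.9, 13.3 and 15.5 FPKM in the 3 spleen libraries and at 0.347, 1.08 and 3.27 in tumor. Replicate 1 was thus several times above the other spleen libraries, and the groups still did not overlap (-3.64 ± 0.82). Csf1r, the receptor of the monocyte growth factor, was at 51.2, 127 and 39.1 FPKM in spleen, highest in replicate 2, and at 12.6, 5.22 and 12.3 in tumor (-2.63 ± 0.45). Adgre1, the macrophage marker F4/80, was also highest in spleen replicate 2, with 12.1, 30.3 and 10.3 FPKM in spleen and 4.57, 2.19 and 5.45 in tumor (-1.78 ± 0.40). The complement genes C1qa and C1qb of macrophages did not pass (-0.44 ± 0.57 and -0.04 ± 0.58), with C1qb at 40.7, 17.1 and 39.2 FPKM in tumor. Of 11 macrophage markers 5 fell and 0 rose in limma. Mrc1, the mannose receptor, changed by 0.94 ± 0.44 and did not pass (adjusted p = 0.0701). Without tumor replicate 2, the macrophage falls outnumbered the rises by 2 in place of 5.

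**Figure D1:**
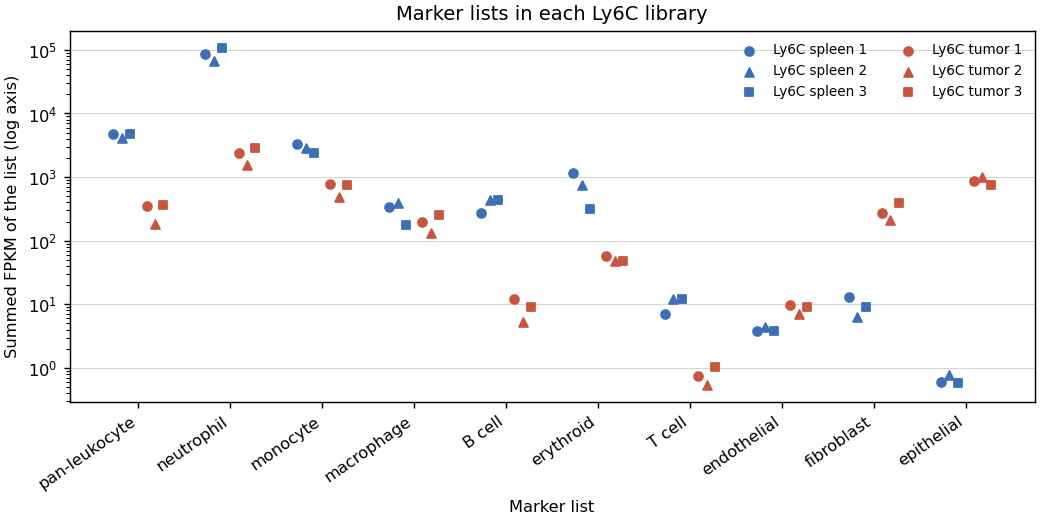
Summed FPKM of 10 marker lists (log axis) in each of the 6 Ly6C libraries, spleen in blue and tumor in red, with a symbol for each replicate. Leukocyte, neutrophil, B cell and erythroid sums are lower in all 3 tumor libraries, and epithelial and fibroblast sums are higher.

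Keratins of simple epithelia were at the other end. Krt8 stood at 0.159, 0 and 0.0494 FPKM in spleen and at 664, 770.0 and 576 in tumor (9.29 ± 0.17, adjusted p = 3.19e-12), and its partner Krt18 at 0.0362, 0.207 and 0.0712 FPKM in spleen and at 196, 249 and 176 in tumor (7.55 ± 0.23). The epithelial list summed to 0.574 to 0.774 FPKM in spleen and to 753 to 1020 in tumor, and nearly all of this came from the 2 keratins. Its other 10 genes did not reach 1 FPKM in 3 libraries. The adhesion molecule Epcam was listed at 0 in all 3 tumor libraries, and E-cadherin (Cdh1) stood at 0.262, 0.187 and 0.332 FPKM there. The keratin genes Krt5, Krt14 and Krt19 were each below 0.1 FPKM in every Ly6C library.

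Fibroblast markers were split in a similar way. Col3a1, a fibrillar collagen, stood at 0.0146, 0.0092 and 0.0336 FPKM in spleen and at 211, 171 and 327 in tumor (7.81 ± 0.26), and the matrix proteoglycans Dcn and Lum were listed at 0 in every spleen library and stood at 6.03, 5.23 and 10.2 FPKM and 5.09, 3.81 and 7.53 FPKM in tumor. The main fibrillar collagen genes were low beside Col3a1: Col1a1 was at 5.57, 0.898 and 3.81 FPKM in tumor (1.11 ± 0.71, did not pass) and Col1a2 at 1.61, 0.342 and 1.36. Fap and Postn, both made by activated fibroblasts, were at 0.0959, 0.0559 and 0.115 and 0.352, 0.0907 and 0.343 FPKM in tumor. In all 6 of 8 tested fibroblast genes rose, and the list's sum went from between 6.35 and 13.2 FPKM to between 214 and 392. Most of the sum in tumor came from Col3a1.

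Markers of endothelium and lymphocytes were low in tumor. Endothelial genes summed to 7.07 to 9.65 FPKM there, above the 3.79 to 4.41 of spleen, with the receptor gene Kdr at 0.0605, 0.0996 and 0.097 FPKM and Tek at 0.0503, 0.0386 and 0.036. Of 3 tested endothelial genes Egfl7 (1.96 ± 0.17) and Cldn5 (1.01 ± 0.43) rose. Pecam1 fell, from 3.30 ± 0.34 to 0.71 ± 0.36 FPKM (-1.35 ± 0.28). B cell genes fell in 10 of 10 (median -3.92), from sums of 277 to 443 FPKM to sums of 5.34 to 12.2. T cell genes summed to 0.543 to 1.03 FPKM in tumor and to 6.91 to 11.9 in spleen, and the 3 that were tested fell. The 114 tested immunoglobulin variable segments all fell (median -2.42), and 8 of 9 erythroid genes did (median -3.07).

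Transcripts of the sex chromosomes differed between the groups. Eif2s3y and Ddx3y, genes of the Y chromosome, were listed at 0 in all 3 Ly6C spleen libraries and stood at 2.69, 5.17 and 2.61 FPKM and 2.32, 4.4 and 2.06 FPKM in Ly6C tumor. Kdm5d and Uty, also Y-linked and too low for the test, had the same pattern with 0.287, 0.484 and 0.216 FPKM and 0.245, 0.546 and 0.235 FPKM in tumor. Tumor replicate 2 was the highest of the tumor libraries for all 4. Usp9y and Zfy1 were listed at 0 in all 6 libraries. Xist, the RNA that coats the inactive X chromosome of female cells, stood at 9.36, 13.1 and 10.1 FPKM in spleen and at 2.42, 2.07 and 1.78 in tumor (-1.93 ± 0.14, adjusted p = 9.36e-08). Of these genes, the spleen libraries thus held Xist and none of the 6 Y-linked ones, and the tumor libraries held Xist and 4 of the 6. The sex of the animals is not in the labels, and which cells the Y-linked transcripts came from was not tested.

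**Figure D2:**
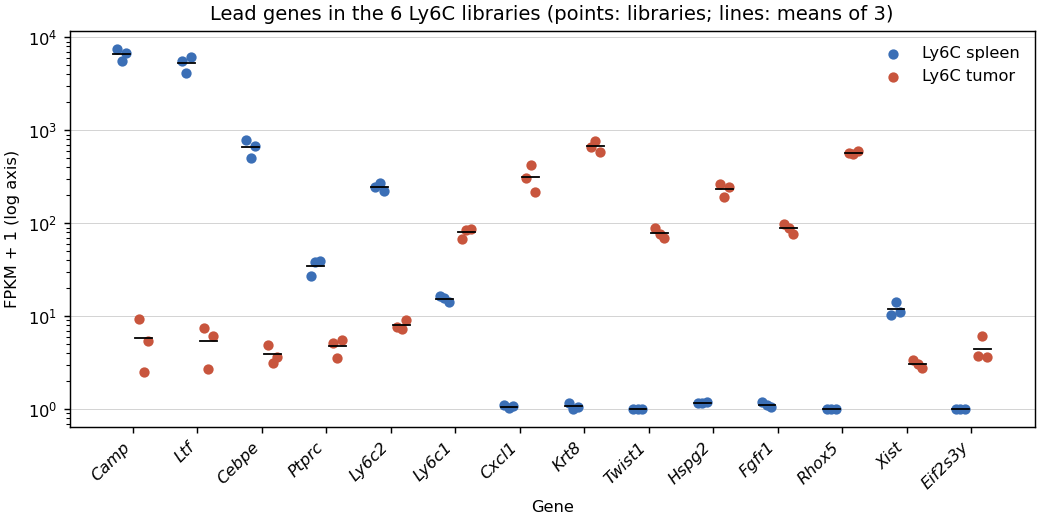
FPKM + 1 (log axis) of 14 genes in the 6 Ly6C libraries; points are libraries and lines are means of 3. Granule and leukocyte genes lie higher in spleen, and keratin, matrix, homeobox and Y-linked genes higher in tumor. The groups do not overlap for any gene shown. Genes from the largest rises and falls were picked among genes without overlap. For them the lack of overlap was a condition of choice. Over all genes tested, the tumor values lay all above the spleen values for 47.9% and all below for 31.2%.

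The 12 largest rises by the naming rule were Krt8, Rhox5, Cxcl1, Ltbp3, Col3a1, Hspg2, Krt18, Spp1, Nid1, Aebp1, Sparc and Igfbp4. Rhox5, a homeobox gene of the X chromosome active in germline support cells and in many mouse tumor lines, was listed at 0 in spleen and at 569, 559 and 600.1 FPKM in tumor. Cxcl1 stood at 0.0968, 0.0321 and 0.0712 FPKM in spleen and at 308, 418 and 217 in tumor (8.16 ± 0.25, adjusted p = 7.95e-11). The others include Ltbp3, which holds latent TGF-beta in the matrix (from 0.151 ± 0.0913 to 269 ± 54.5 FPKM), Spp1, osteopontin (from 5.86 ± 1.61 to 997 ± 108 FPKM), Aebp1, a collagen-binding protein (from 0.0154 ± 0.0047 to 126 ± 5.4 FPKM), and Igfbp4, which binds insulin-like growth factors (from 6.57 ± 0.622 to 905 ± 143 FPKM). In the annotation, Krt8 (ENSMUSG00000049382) spans chromosome 15, 101996698 to 102004482, and Rhox5 (ENSMUSG00000095180) lies on chromosome X between 37804842 and 37808876.

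The 12 largest falls were Camp, Ltf, Ngp, Fcnb, Cebpe, Cd177, Itgb2l, Serpinb1a, Chil3, Ifitm6, Pglyrp1 and Atp2a3. Camp stood at 7453, 5584 and 6797 FPKM in spleen and at 8.39, 1.51 and 4.4 in tumor (-10.35 ± 0.83, adjusted p = 2.52e-07). Ltf stood at 5544, 4125 and 6093 FPKM in spleen and at 6.42, 1.72 and 5.16 in tumor (-10.02 ± 0.69) and Ngp at 5683, 4898 and 6076 FPKM in spleen and at 7.48, 4.32 and 6.21 in tumor (-9.65 ± 0.53). Tumor replicate 2 had the lowest Camp and Ltf of the 6 libraries. Cebpe, the granule regulator, fell from 657 ± 139.7 to 2.9 ± 0.917 FPKM (-7.4 ± 0.31). The neutrophil surface protein Cd177 fell from 1517 ± 381 to 8.94 ± 2.3 FPKM, and Itgb2l, an integrin beta chain of neutrophils, from 247 ± 63.8 to 0.597 ± 0.12 FPKM. Serpinb1a, an inhibitor of neutrophil proteases, fell from 239 ± 62.9 to 0.602 ± 0.127 FPKM, and Atp2a3, a calcium pump found in blood cells, from 127 ± 7.85 to 1.13 ± 0.548 FPKM. Camp (ENSMUSG00000038357) spans chromosome 9, 109847379 to 109849617.

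Genes present in one tissue and absent or nearly so in the other were many. A total of 254 genes were below 1 FPKM in all 3 spleen libraries and at 10 FPKM or more in all 3 tumor libraries, and 87 had the reverse pattern. By size, 3823 genes rose and 2283 fell by at least 2-fold, and 100 rose and 42 fell by at least 32-fold. The composition of the libraries also changed: S100a8 and S100a9, calcium-binding proteins of neutrophils and monocytes, took 18.4% ± 4.21 of FPKM in spleen and 0.487% ± 0.139 in tumor. Cytosolic ribosomal protein genes took 3.12% ± 0.644 and 13.1% ± 0.525, and processed pseudogenes, mostly copies of abundant genes, 6.64% ± 0.785 and 18.1% ± 0.687. The 10 highest genes of a library took 28.2% ± 4.8 in spleen and 10.4% ± 1.03 in tumor (SD, n = 3).

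Transcription factors followed this division. Of 36 blood lineage factors 31 fell and 2 rose (median -1.57), and of 38 factors of mesenchyme, epithelium and development 32 rose and 5 fell (median 2.19). The latter list held 73 genes, 33 of them listed at 0 in all 3 spleen libraries. Any of those that were tested could only rise. The blood factors included Lyl1, a helix-loop-helix factor of blood progenitors (from 114 ± 21.5 to 2.91 ± 1.25 FPKM, -4.92 ± 0.26), Ikzf1, the lymphoid and myeloid factor Ikaros (-4.85 ± 0.25), Spi1, the myeloid master regulator PU.1 (from 488 ± 83.3 to 30.9 ± 14.9 FPKM, -4.06 ± 0.37), and Fli1 (-3.76 ± 0.19). Gata1, the erythroid factor, was listed at 0 in all 3 tumor libraries and at 2.32, 1.98 and 1.7 FPKM in spleen. The 2 that rose were Tcf3 (0.53 ± 0.20) and Batf2 (1.05 ± 0.17), and the Tcf3 call was lost under 6 of the alternatives. Cebpb, active in many cell types, changed by -0.37 ± 0.34 and did not pass (adjusted p = 0.336).

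Twist1, a factor of mesenchyme that drives loss of epithelial adhesion, was listed at 0 in spleen and at 87, 75 and 69.2 FPKM in tumor. Sox9, a factor of cartilage and epithelial progenitors, stood at 0, 0 and 0.0356 FPKM in spleen and at 33.6, 37.1 and 28.7 in tumor (5.07 ± 0.14). Twist2 (4.94 ± 0.13), the fetal chromatin protein Hmga2 (4.98 ± 0.17) and its relative Hmga1 (from 14.3 ± 3.3 to 362 ± 33.7 FPKM, 4.58 ± 0.20) rose as well. Of homeobox genes, which have positional roles in the embryo, Hoxa9 (3.7 ± 0.13) and Dlx2 (3.85 ± 0.13) rose, and Hoxd8, Hoxd10 and Nkx2-5 were listed at 0 throughout spleen and stood at 7.08, 5.87 and 8.08, at 5.69, 4.17 and 6.09 and at 27.1, 19.9 and 19.4 FPKM in tumor. The epithelial factor Elf3 (3.56 ± 0.15) rose. The falls included Id2, an inhibitor of helix-loop-helix factors (-2.95 ± 0.21), Foxm1, a factor of dividing cells (-1.74 ± 0.12), Klf5 and Sox4.

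Actin regulators listed as blood-restricted were lower in tumor. White blood cells build their cytoskeleton with a set of proteins that other cells replace by relatives. Of 20 blood-restricted actin regulators 19 fell and 0 rose in limma (median -4.12), and Evl did not pass (-0.14 ± 0.30). Several of them, among them Rac2, Coro1a, Lcp1 and Arhgdib, also stand in the pan-leukocyte list and in the pairs below. The 3 results thus share genes and are not separate. Cyfip2, a subunit of the WAVE complex, fell from 124 ± 27.9 to 1.05 ± 0.478 FPKM (-5.94 ± 0.26), and Arhgdib, which holds small GTPases in the cytosol, from 859.5 ± 98.2 to 27.5 ± 14.1 FPKM (-5.04 ± 0.33). Rac2, the Rac GTPase of blood cells, stood at 653, 433 and 572 FPKM in spleen and at 25.7, 8.61 and 20.1 in tumor (-4.96 ± 0.39). Of 24 genes of adherent-cell actin and focal adhesion 13 rose and 7 fell (median 0.56), shares near those of all genes tested, and the 13 became 10 with equal sums without S100a8 and S100a9. Filamin C (Flnc) rose from 0.00355 ± 0.00307 to 55.5 ± 4.63 FPKM (5.81 ± 0.13) and the tropomyosin Tpm2 from 0.0167 ± 0.0289 to 22.2 ± 2.01 FPKM (4.51 ± 0.11), whereas filamin A (Flna, -2.11 ± 0.14) and the calponin Cnn2 (-2.71 ± 0.16), abundant in leukocytes too, fell.

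Pairs of related genes were then set side by side, a gene listed as blood-restricted with a broadly expressed relative. The class is the list's name and was not tested. Arpc1b, listed as blood-restricted, stood at 122 FPKM in tumor beside 22.8 for its relative Arpc1a. In 34 of 36 pairs both genes were tested. The blood-restricted gene fell in all 34 (median -3.54), and of their relatives 19 rose, 9 fell and 6 did not pass (median 0.77). The pairs were chosen with earlier results of these data known, so these counts describe the pairs and test nothing further. The blood-restricted gene made up a median of 92.8% of the pair's FPKM in spleen and 37.0% in tumor, and it was the larger of the pair in 33 pairs in spleen and in 11 in tumor. Under the 4 rescalings the number of pairs with a fall beside a rise was 18 or 19, against 19 without rescaling.

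The actin bundlers Lcp1 and Pls3 changed by -3.74 ± 0.35 and 4.09 ± 0.13, Lcp1 from 218 ± 40.1 to 15.7 ± 4.89 FPKM and Pls3 from 0.287 ± 0.104 to 21 ± 2.93 FPKM. The cortactin relatives Hcls1 and Cttn changed by -3.66 ± 0.31 and 4.5 ± 0.12, and the WAVE subunits Nckap1l and Nckap1 by -2.83 ± 0.18 and 4.03 ± 0.13. Among integrins, Itgb2, the beta chain of leukocytes, fell by 3.51 and Itgb1, that of most adherent cells, changed by 1.46 ± 0.21. The glucose transporters Slc2a3 and Slc2a1 changed by -2.65 ± 0.28 and 2.3 ± 0.17. Not every pair split: Arhgdia, Rac1, Coro1c, Vav2, Pik3ca and Pfkfb3 did not pass, and 9 relatives fell, among them the kinases Pik3cb (-2.11 ± 0.25) and Tec (-1.22 ± 0.16), each by less than its blood-restricted partner (Pik3cg, -2.82 ± 0.20, and Btk, -3.2 ± 0.19).

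**Figure D3:**
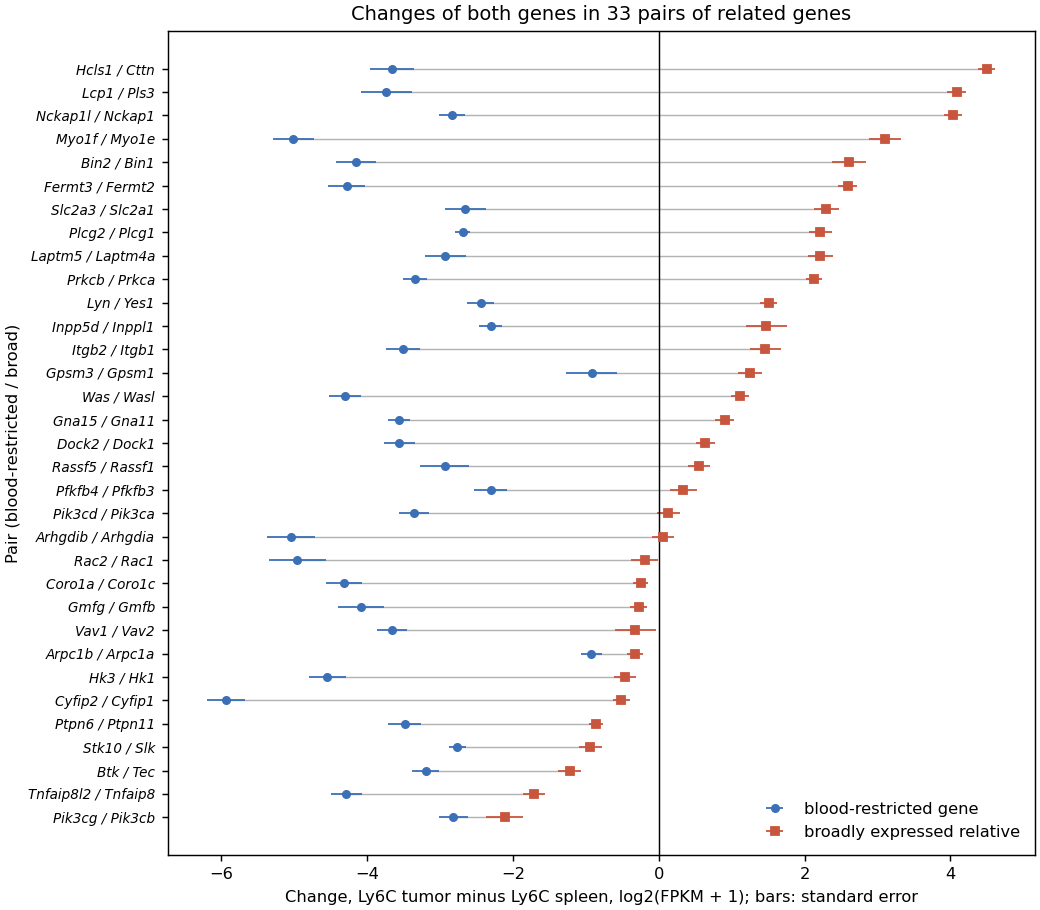
Change in Ly6C tumor against Ly6C spleen (log2 of FPKM + 1, bars are standard errors) for 33 of the 34 pairs with both genes tested. Blue circles are genes listed as blood-restricted, all below 0, and red squares their broadly expressed relatives, of which 18 rose.

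Adhesion and matrix genes were mostly higher in tumor. All 13 tested genes of laminins and basement membrane, the sheet on which epithelia and vessels rest, rose (median 5.64). The list held 21 genes, which summed to 5.12 to 8.46 FPKM in spleen libraries. Those below 1 FPKM in spleen met the filter only through tumor and could only rise. Hspg2, the heparan sulfate proteoglycan perlecan, stood at 0.167, 0.158 and 0.188 FPKM in spleen and at 261, 190.2 and 245 in tumor (7.62 ± 0.17), and nidogen 1 (Nid1), which links laminin to collagen IV, at 0.221, 0.358 and 0.399 FPKM in spleen and at 192, 164 and 169.7 in tumor (7.05 ± 0.11). Sparc, a collagen-binding matrix protein, rose from 0.0834 ± 0.00358 to 129.8 ± 25.8 FPKM (6.9 ± 0.20), the laminin chains Lama5 and Lamb1 by 6.49 ± 0.11 and 6.05 ± 0.10, and Col4a1 by 5.64 ± 0.20. Of 17 junction genes 13 rose and 4 fell (median 1.44). The tight junction scaffold Tjp1 rose by 3.76 ± 0.12, while plakoglobin (Jup, -2.47 ± 0.15) and Cldn1 (-1.41 ± 0.28) fell.

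Of 22 integrins and matrix receptors 14 rose and 8 fell (median 1.30). Syndecan 1 (Sdc1), a proteoglycan of epithelia and plasma cells, rose from 0.528, 0.958 and 0.397 FPKM to 145, 109 and 138 (6.34 ± 0.20), and Itga3, the laminin-binding integrin subunit, by 5.53 ± 0.11. The leukocyte subunits Itgal (-3.93 ± 0.33) and Itgam fell. Sdc1 also stands in the plasma cell list, where the other 3 tested genes, Jchain (-3.88 ± 0.41), Mzb1 (-2.49 ± 0.24) and Xbp1 (-0.77 ± 0.18), fell. Of 20 genes of the YAP and TEAD module, which responds to stretch and cell contact, 17 rose and 3 fell (median 2.79). Its matricellular target Ccn1 rose from 0.00858 ± 0.0149 to 92.8 ± 8.14 FPKM (6.54 ± 0.16), and the co-activators Wwtr1 and Yap1 by 4.91 ± 0.13 and 3.49 ± 0.09.

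Chemokine ligands mostly rose, and chemokine receptors mostly fell. Of 17 chemokine ligands 15 rose and 0 fell in limma (median 2.58), whereas of 11 chemokine receptors 7 fell and 2 rose (median -1.25). The ligand list held 33 genes, 11 of them listed at 0 in all 3 spleen libraries. Besides Cxcl1, the monocyte attractants Ccl7 and Ccl2 rose from 0.0857 ± 0.0983 to 104 ± 8.11 FPKM (6.59 ± 0.14) and from 6.6 ± 2.9 to 360.2 ± 57.3 FPKM (5.63 ± 0.27), and Cxcl2 from 34.4 ± 13.9 to 424 ± 18.5 FPKM (3.66 ± 0.24). Among receptors, Cxcr2, which binds Cxcl1 and Cxcl2, stood at 36.3, 24.7 and 56.3 FPKM in spleen and at 4.66, 2.8 and 4.1 in tumor (-2.99 ± 0.32). The bone marrow homing receptor Cxcr4 fell by 3.35 (adjusted p = 4.34e-08), and Ccr2, which binds Ccl2 and Ccl7, changed by -1.29 ± 0.45. Both receptors that rose are atypical: Ackr3, which scavenges Cxcl12, rose by 4.05 ± 0.24 and Ccrl2, which presents chemerin, by 2.57 ± 0.18. Ccl9 and Ccl6, made by myeloid cells, did not pass (-0.41 ± 0.43 and 0.51 ± 0.29).

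Growth factors and receptor tyrosine kinases mostly rose. Of 23 growth factor ligands 20 rose and 1 fell (median 2.70). The list held 42 genes, 10 of them listed at 0 in all 3 spleen libraries. The EGF receptor ligands Hbegf and Ereg stood at 24.7, 33.5 and 20.7 FPKM and 16.4, 22.9 and 22.5 FPKM in tumor, with 0.0985, 0.151 and 0.0861 and 0.0126, 0 and 0 in spleen (4.59 ± 0.21 and 4.41 ± 0.13). Csf1, the ligand of Csf1r, rose from 4.48 ± 1.33 to 72.5 ± 9.08 FPKM (3.76 ± 0.22), and Csf2 and Csf3, which drive granulocyte and macrophage production, by 3.09 ± 0.23 and 3.57 ± 0.23. The angiogenic factor Vegfa rose by 1.99 ± 0.20 and Flt3l fell (-1.08 ± 0.12). Of 19 receptor tyrosine kinases 15 rose and 4 fell (median 2.61), from a list of 44 genes with 10 listed at 0 in all 3 spleen libraries. Fgfr1 stood at 0.184, 0.114 and 0.063 FPKM in spleen and at 97.8, 88.6 and 74.7 in tumor (6.29 ± 0.16), the ephrin receptor Epha2 rose by 5.93 ± 0.19 and the collagen receptor Ddr1 by 5.01 ± 0.18. The falls were Csf1r, Mertk (-1.02 ± 0.25), Igf1r (-0.90 ± 0.19) and Insr (-0.70 ± 0.19).

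By contrast, myeloid cytokine receptors mostly fell. Of 31 myeloid cytokine receptors 21 fell and 4 rose (median -0.95). Csf2ra, the alpha chain for Csf2, fell from 673 ± 155 to 69.7 ± 25.1 FPKM (-3.3 ± 0.27), Il3ra by 3.0 and Csf3r by 1.52. The receptors that rose were Il17rc (4.59 ± 0.12), Il1r1 (3.61 ± 0.10), Il1rl1, which binds interleukin 33 (3.15 ± 0.38), and Il6st (1.49 ± 0.26). Of 37 Fc receptors, ITAM adaptors and Src-family signalling genes 31 fell and 2 rose (median -2.44). The ITAM adaptor genes Tyrobp and Fcer1g fell from 914 ± 59.4 to 134 ± 49.6 FPKM (-2.84 ± 0.28) and from 565 ± 49.5 to 69.1 ± 28.4 FPKM (-3.11 ± 0.32), and Trem3 by 5.50. The 2 that rose were the C-type lectins Clec4n (0.97 ± 0.29) and Clec4d (1.04 ± 0.33), whose values overlapped between the groups.

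Of 30 pattern recognition genes 17 fell and 5 rose (median -0.99), and with 3 of the 4 rescalings 20 to 22 fell and 2 or 3 rose. The inflammasome adaptor Pycard (-2.48 ± 0.17) and the inhibitory kinase Irak3 (-2.53 ± 0.19) fell, and Cd14 and the inflammasome sensor Nlrp3 (1.01 ± 0.35) rose, with the Nlrp3 call lost under 5 of the alternatives. Of 21 TNF family genes 12 fell and 6 rose (median -1.24). Tnfrsf12a, the receptor for TWEAK, rose from 2.68 ± 0.718 to 115 ± 13 FPKM (5.0 ± 0.17) and the costimulator Tnfrsf9 by 3.2 ± 0.35, while Tnfrsf21 (-4.83 ± 0.26) and lymphotoxin beta (Ltb, -3.84 ± 0.30) fell. BCL2 family and caspase genes were 12 lower and 11 higher of 29 (median -0.08).

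Developmental signalling genes mostly rose. Of 20 Wnt pathway genes 17 rose and 1 fell (median 1.27), from a list of 43 genes with 10 listed at 0 in all 3 spleen libraries. Wnt7b was listed at 0 in spleen and at 30.4, 36.3 and 26.2 FPKM in tumor, and Tcf7l1, a repressor of Wnt targets, rose from 0, 0.0496 and 0 FPKM to 84.4, 73.1 and 64.5 (6.2 ± 0.16), whereas its T cell relative Tcf7 fell (-1.19 ± 0.19). Of 31 BMP and TGF-beta genes 21 rose and 7 fell (median 1.13). Latent TGF-beta binding proteins led the rises, Ltbp3 by 7.85 ± 0.18 and Ltbp4 by 5.5 ± 0.14, and the ligand Tgfb1 itself fell (-1.56 ± 0.27), as did the activin receptor relative Acvrl1 (-3.8 ± 0.34). Of 26 guidance genes 19 rose, led by netrin 1 (Ntn1, 5.0 ± 0.12) and Sema3f (4.68 ± 0.15), and 5 fell, with Plxnc1 (-4.29 ± 0.18) and Sema4a (-3.54 ± 0.29) lowest.

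**Figure D4:**
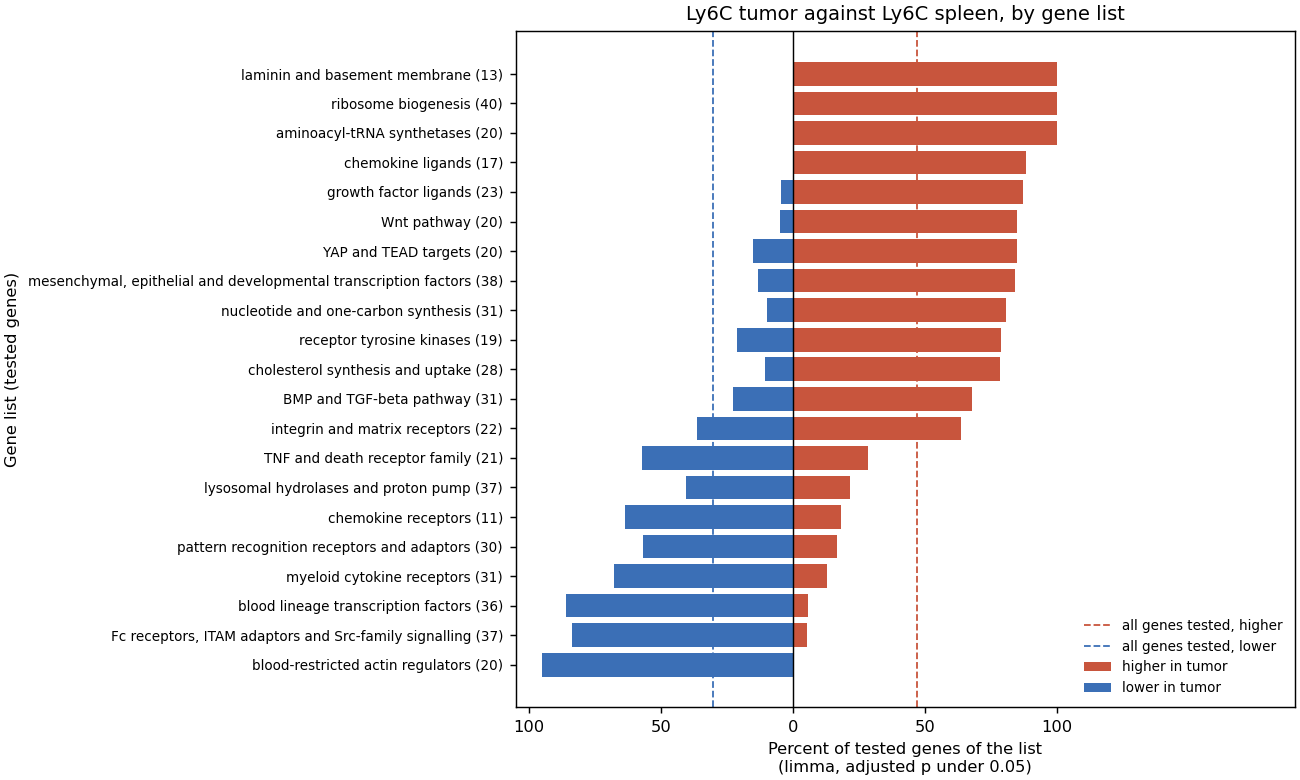
Percent of the tested genes of 21 lists that rose (red, to the right) or fell (blue, to the left) in Ly6C tumor; the number tested stands in brackets. Dashed lines mark all genes, 47.1% higher and 30.3% lower.

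Genes for making ribosomes and proteins were higher in tumor almost without exception. All 40 ribosome biogenesis genes rose (median 1.97), and 38 to 40 did under the 4 rescalings. Nucleophosmin (Npm1) stood at 16.5, 27.4 and 15.9 FPKM in spleen and at 208, 253 and 229.7 in tumor (3.51 ± 0.20), and Mybbp1a, a nucleolar protein, rose from 7.51 ± 2.71 to 66.3 ± 3.24 FPKM (3.03 ± 0.21). All 20 cytosolic aminoacyl-tRNA synthetases, which load amino acids onto tRNA, rose (median 1.23), led by Gars (2.16 ± 0.15) and Kars (2.08 ± 0.17), and 16 to 19 rose under the rescalings. Of 79 cytosolic ribosomal protein genes 76 rose (median 2.12). Processed pseudogenes that copy them make single values uncertain, and Rpl17 was listed at 0 in all 3 spleen libraries beside its expressed relatives.

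Genes of synthetic metabolism mostly rose as well. Of 31 genes of nucleotide and one-carbon synthesis 25 rose and 3 fell (median 1.59). Phgdh, the entry enzyme of serine synthesis, stood at 3.82, 4.62 and 2.22 FPKM in spleen and at 86.3, 79.8 and 70.5 in tumor (4.17 ± 0.21), and the folate enzyme Mthfd1 rose by 3.17 ± 0.14. All 3 falls were subunits of ribonucleotide reductase, which makes the building blocks of DNA: Rrm1 (-0.99 ± 0.12), Rrm2 (-0.74 ± 0.14) and Rrm2b (-0.35 ± 0.12). Odc1, the first enzyme of polyamine synthesis, rose from 12.2 ± 2.19 to 479 ± 123 FPKM (5.16 ± 0.24), and 20 of 32 amino acid genes rose and 5 fell. Of 24 fatty acid genes 17 rose and 6 fell, with Fads2 (3.99 ± 0.24) and fatty acid synthase (Fasn, from 5.06 ± 1.7 to 62.1 ± 7.64 FPKM, 3.41 ± 0.21) highest and the triglyceride enzyme Dgat2 (-3.07 ± 0.21) lowest. The fatty acid list summed to 359 to 442 FPKM in spleen and to 363 to 436 in tumor. With equal sums without S100a8 and S100a9, 14 fatty acid genes rose and 6 fell, and 15 amino acid genes rose and 7 fell. Nucleotide and one-carbon genes were then 25 higher and 4 lower.

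Of 28 cholesterol genes 22 rose and 3 fell (median 0.85), and 15 or 16 rose under 3 of the 4 rescalings. Mvd, an early enzyme of cholesterol synthesis, fell from 198 ± 26.9 to 29.4 ± 2.89 FPKM (-2.7 ± 0.15). Proteasome genes rose in 24 of 39 and fell in 2, with 15 higher and 5 lower under equal sums without S100a8 and S100a9. There 4808 of 12705 genes rose, a share near that of the proteasome genes. Genes of protein translocation and export rose in 34 of 53 and fell in 1, and 26 rose and 8 fell under that rescaling. Lysosomal genes were 15 lower and 8 higher of 37 (median -0.28), and 21 fell under 3 of the 4 rescalings. Ctsg (-3.67 ± 0.29) and Ctsh (-2.83 ± 0.28) fell furthest, and Gaa (3.68 ± 0.30) and Ctsl (3.68 ± 0.16) rose most. Chromatin enzymes were balanced, with 10 higher and 9 lower of 29, and turned to more lower than higher genes under all 4 rescalings.

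Iron genes were 13 lower and 11 higher of 31 (median 0.05), where over all genes 47.1% rose and 30.3% fell. The siderophore-binding Lcn2 fell from 1915 ± 393 to 35.5 ± 1.8 FPKM and haptoglobin (Hp) from 1441 ± 268 to 45.3 ± 14.2 FPKM, while the ferritin heavy chain Fth1 rose from 718 ± 46.2 to 4070.1 ± 116 FPKM (2.5 ± 0.17) and the reductase Steap1 by 4.61 ± 0.11. Of 11 tested imprinted genes 9 rose and 1 fell (median 1.89), led by the retrotransposon-derived Peg10 (3.71 ± 0.10) and Peg3 (3.47 ± 0.17). Surface proteins of carcinoma and stem-like cells were 21 higher and 15 lower of 39, a split not far from that of all genes. The caveolar protein Cavin1 rose from 0.0565 ± 0.0306 to 125 ± 22.9 FPKM (6.89 ± 0.13), S100a16 was listed at 0 in spleen and at 43.5, 42.7 and 36.9 FPKM in tumor, and Ceacam1 (-5.66 ± 0.27) and Ly6d (-4.46 ± 0.27) fell. Protease inhibitors were 11 higher and 9 lower of 24 (median -0.01), also not far from the split of all genes, and equal in number under quantile normalization. The collagen chaperone Serpinh1 (6.09 ± 0.20) rose, and the whey acidic protein Wfdc21 (-5.07 ± 0.27) fell.

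The tissue change of Ly6C libraries was compared with that of Ly6G libraries by the interaction term. It passed for 22.7% of genes, 2887 in all, of which 2134 changed less upward or further downward in Ly6C and 753 the other way. The count was 4711 with equal library sums and 4407 with array weights, and the list counts that follow are without rescaling or weights. FPKM summed to 426182 to 449309 in Ly6G spleen libraries and to 331681 to 355663 in Ly6G tumor libraries. In Ly6C libraries they summed to 338757 to 353423 in spleen and to 359703 to 388126 in tumor. Sums thus fell from spleen to tumor in Ly6G and rose in Ly6C, which shifts unscaled differences toward a larger rise in Ly6C. Their part in the list counts was not tested. Of the 79 cytosolic ribosomal protein genes, the rise was larger in Ly6C for 50 and smaller for 0 (limma, interaction). Of the 20 blood-restricted actin regulators 10 passed, all with the larger fall in Ly6C, and the median change was -4.12 in Ly6C and -2.77 in Ly6G. Blood lineage factors passed in 19 of 36, 17 of them lower in Ly6C, although the medians were -1.57 in Ly6C and -1.65 in Ly6G. Monocyte markers had a median of -2.08 in Ly6C and 0.08 in Ly6G, and 5 of 14 passed. For the 13 basement membrane genes the medians were 5.64 and 5.74, and 1 passed. Dissociation stress genes, which respond to tissue handling, had a median of 0.20 in Ly6C and 2.44 in Ly6G. The heat shock gene Hspa1a was uneven among Ly6C tumor libraries, at 2.46, 62.9 and 537 FPKM, and did not pass (1.94 ± 1.54). The part of handling in the results above was not tested.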

How the data were processed

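RNA of 12 mouse libraries was sequenced as paired-end Illumina reads, per the labels' protocols. Per the submitters' processing notes, HISAT2 2.0.5 and featureCounts 1.5.0-p3 were used with the build GRCm38. The authors deposited FPKM for 54674 rows, with no scaling between libraries stated, and which tool and annotation gave the FPKM is not given in the sources used here. Counts were not used here, so depth and counting error are unknown. The 570 rows of assembled loci, which name no gene, were left out of the tests.

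Genes at 1 FPKM or more in 3 or more of the 6 Ly6C libraries were fitted as log2(FPKM + 1) in limma 3.58.1 under R 4.3.3, as 4 group means over 12 libraries with a variance trend (8 residual and 3.5 prior degrees of freedom). Tests were two-sided. GENCODE M21 supplied symbols and coordinates for all but 4 genes, and RefSeq the promoters. Named genes were the 12 highest and 12 lowest changes among passing genes whose groups did not overlap (predicted genes and antigen receptor segments left out), the 2 largest rises and falls of each list, both genes of each pair, the 10 highest genes of each group, a fixed set of markers and up to 3 leading markers per cell type. Other list members named in the text were chosen after their values were seen. The genes, lists and pairs were chosen with earlier results of these data known. Motif words and chromosome medians were added after the data were seen. Some genes that these rules name are not reported here.

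Alternatives were a pseudocount of 0.1 or 5, no filter or one at 5 FPKM, 4 rescalings, a fit of the 6 Ly6C libraries, array weights, a fit with no variance trend, a block for the replicate number, and the omission of each Ly6C library. On simulated data of this comparison with 12707 genes, the fit recovered 86% of 100 genes with a log2 change of 1 and 99% of 100 with a change of 2, with 6.09% of calls false. Those rates need not hold where most genes change.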

Additional observations from a re-analysis of the deposited data

Results flagged for a closer look

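The tissue change of 9 of the named genes (the 12 highest, the 12 lowest and the fixed set) differed between Ly6C and Ly6G libraries by the interaction term of the limma fit. Given as the Ly6C change minus the Ly6G change, the difference was 0.90 ± 0.16 for Rhox5 and 0.59 ± 0.15 for Nid1, which rose in both. It was -0.63 for Igfbp4, which also rose in both. Among genes that fell in both, it was -2.08 for Cebpe, -1.69 for Cd177, -1.50 for Itgb2l, -1.86 for Atp2a3, -0.64 for Xist and -1.16 for Ptprc. Each of these 6 fell further in Ly6C. All 9 differences are without rescaling. Library sums fell from spleen to tumor in Ly6G and not in Ly6C, and the differences with equal library sums are not given here.

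Assembled loci, which name no gene, were outside the comparison. Of 228 with at least 1 FPKM in 3 of the 6 Ly6C libraries, 79 had all 3 tumor values above all 3 spleen values and 102 the reverse. No test was run on them.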

How the results depend on the processing

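With at least 5 FPKM required in 3 of 6 libraries, 7656 genes were tested, of which 3674 rose and 2507 fell, against 5990 and 3856 of 12707. The count of genes whose tissue change differed between Ly6C and Ly6G moved from 2887 to 4711 with equal library sums and to 4407 with array weights, and the cause was not tested. The other alternatives kept each of these counts within 1.5 times. Leaving out each Ly6C library gave 5642 to 6194 genes higher, 3648 to 3800 lower and 2095 to 3078 for the difference.

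Nothing ties a replicate number to an animal, and deviations of same-numbered spleen and tumor libraries correlated at 0.123, -0.0054 and 0.0169, so the numbers were not taken as pairs. With the replicate block 6004 genes rose, 3828 fell and 2550 differed between Ly6C and Ly6G. Spleen replicate 1 correlated best with tumor replicate 1, and the others did not correlate best with their own number.

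Of 276 named genes, none reversed under any alternative, and over these genes and all alternatives 69 calls were lost and 14 gained. Lists counted as higher minus lower genes reversed in 7 cases: chromatin enzymes at -1 with equal sums, -7 with equal sums without S100a8 and S100a9, and -6 with median-of-ratios factors and with quantile normalization; sex-chromosome transcripts at -1 with the filter at 5 FPKM, which removes both Y-linked genes; and dissociation stress genes, which ranged from -2 to 2 with a library left out, at 2 without spleen replicate 2 and at 1 without replicate 2 of Ly6C tumor. Depth is unknown, so a gene listed at 0 cannot be told from one expressed below detection.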

Other observations

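Genes were also grouped by chromosome, over 6199 protein-coding genes whose mean over the 6 Ly6C libraries was at least 5 FPKM. Their median change in Ly6C tumor was 0.15 (log2 of FPKM + 1). Chromosome 12 lay highest with a median of 0.90 over 222 genes, and it was 0.91, 0.96 and 0.89 in tumor replicates 1, 2 and 3. In steps of 25 Mb from its start, the median was 1.45, 1.68 and 1.90 over the first 75 Mb and 0.27 and 0.26 over the rest. Chromosome 6 followed at 0.78 over 288 genes. Chromosome 7 lay lowest at -0.37 over 456 genes, with -0.33, -0.42 and -0.38 in the same libraries, and chromosome 14 was next at -0.32 over 169 genes. Each spleen library was also set against the mean of the other two: on chromosome 12 the medians were -0.06, 0.15 and -0.08, and over all genes -0.03, 0.16 and -0.13. In Ly6G libraries the same genes had a median tissue change of 0.36, with 1.04 on chromosome 12 and -0.11 on chromosome 7. These are descriptions with no test.

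The mast cell proteases Mcpt4 and Cma1 were at low levels in tumor and listed at 0 in all 3 Ly6C spleen libraries. In tumor Mcpt4 stood at 1.54, 0.483 and 1.52 FPKM and Cma1 at 1.58, 0.513 and 1.21. These are 2 of 10 mast cell and basophil genes, none of which reached the expression filter. The list summed to 2.26 to 2.92 FPKM in spleen libraries and to 2.42 to 6.10 in tumor libraries, so other genes of the list were present in spleen. Endothelial genes Esam and Cdh5 were at 1.39, 0.878 and 1.02 and 1.04, 0.495 and 0.911 FPKM in the tumor libraries. For all 4 genes tumor replicate 2 was the lowest tumor library, as it was for the pan-leukocyte sum, whereas it was the highest for the keratin genes and the 4 Y-linked genes that were detected.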
